A study of Mus musculus with 27 samples.

Results

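Semaphorins, plexins and neuropilins are the 31 protein-coding mouse genes whose symbols run from Sema3a to Sema7a, from Plxna1 to Plxnd1, and Nrp1 and Nrp2. They comprise 20 semaphorins, 9 plexins and 2 neuropilins among the 55414 genes counted in the livers of this series. The symbol pattern that defines them uses no measured value. The mean over all libraries reached 10 counts for 26 of them, namely 16 semaphorins, 8 plexins and both neuropilins, and those 26 were tested. Polyadenylated RNA was counted in total liver homogenate of female Balb/c mice, aged 8 weeks when bought, in 27 libraries of 8 groups. The control group (n = 4) received olive oil into the peritoneum and PBS into the tail vein. The 3 further groups without carbon tetrachloride received olive oil together with 4MU by gavage (n = 3), siLuc (n = 3) or siHAS2 (n = 3). The CCl4 group (n = 2) received carbon tetrachloride (CCl4), a hepatocyte toxin that scars the liver, for 2 weeks, and the groups CCl4+4MU (n = 4), CCl4+siLuc (n = 4) and CCl4+siHAS2 (n = 4) received it together with a treatment that began before the first dose. 4MU (4-methylumbelliferone) inhibits the synthesis of hyaluronan, siHAS2 is an siRNA against hyaluronan synthase 2 carried in lipid nanoparticles (LNP), and siLuc is an siRNA against luciferase, a gene that mice lack, in the same carrier. The paper adds that 4MU was mixed with carboxymethyl cellulose and that control mice received this vehicle by gavage. Which groups those control mice include is not said. Mice without siRNA received no empty particles, so the particle and the siRNA cannot be told apart in a comparison with them. Each library is taken here as 1 mouse; the labels number the libraries of a group and do not name animals, so p-values measure the spread between these libraries.

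Semaphorins are secreted or membrane-bound guidance proteins first known for steering growing axons. Plexins are their main receptors and pass the signal through a GTPase-activating domain inside the cell, which acts on small GTPases and so on the cytoskeleton and on adhesion. Most class 3 semaphorins are secreted and need a neuropilin as a partner of a class A plexin, class 4 semaphorins bind mainly class B plexins, and class 5 and 6 semaphorins are membrane proteins, the latter binding class A plexins. Neuropilins also bind members of the VEGF family and thereby take part in the growth of blood and lymph vessels. In liver, members of these families are known from sinusoidal endothelium, stellate cells, hepatocytes and immune cells.

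The libraries held 7044386 to 29425937 counts (median 22109517). The fewest were in CCl4+siHAS2 mouse 4. Has2, the target of siHAS2, had 0 counts in 25 of the 27 libraries. It had 2 counts in CCl4 mouse 2 and 1 count in CCl4+siLuc mouse 4. The knockdown could therefore not be checked from these counts. Hepatocyte markers dominated as the label of liver requires: Alb, Ttr, Apoa1, Tat and Asgr1 together took between 69010 and 192800 CPM (counts per 1000000 counts of the TMM-scaled library). The lowest of these sums was in CCl4 mouse 2. That mouse is 1 of only 2 in its group, and every comparison with the CCl4 group below rests on it. CCl4+4MU mouse 4 stood apart in its cholangiocyte markers, with a summed 122.1 CPM against 3.296 to 24.11 CPM in the other 26 libraries. Schwann cell and nerve markers were near background, with Sox10 at 0 in all groups but 1 and a summed level of 3.09 to 8.255 CPM for the 5 genes.

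Promoter sequence for 26 of the 31 genes was at hand (RefSeq, GRCm38.p6, 250 bases before to 50 after each start, 37 windows because some genes have several starts). Short motifs, 5 in all, were searched on both strands, a choice made after the expression values had been seen. The AP-1 site TGANTCA, which reads the same on both strands, lay in 3 of the 37 windows (8.11%) and in 7.81% of all 32851 windows. The 3 windows belong to Sema4c, Sema4d and Sema6b, each of them higher with CCl4 (below), and are 3 of the 16 windows of such genes (18.8%). Each of these 3 genes also has a window at another start without the AP-1 site. Plxna1, Plxna4 and Sema3f, which rose too, have no window here. The TEAD site GGAATG was found in 3 windows (8.11% against 14.7% of all), among them those of Plxnb1 and Plxnd1, which are 12.5% of the 16. The 30 bases around each of these 5 matches are shown, 5′ to 3′ on the gene's own strand with the motif in capitals, because they belong to 5 of the 14 members that rose with CCl4. All of them lie on the GRCm38.p6 build, at chr1:36558386-36558415 for Sema4c (minus strand), chr13:51749031-51749060 for Sema4d (minus), chr17:56133883-56133912 for Sema6b (minus), chr9:109095276-109095305 for Plxnb1 (plus) and chr6:115995161-115995190 for Plxnd1 (minus, the motif being in reverse complement).
Sema4c: tggcgcagacctTGACTCAcgagctgcaag
Sema4d: ccccacatcccTGAATCAgcctatatagga
Sema6b: acacacgtactcTGAGTCAcaaatcctgga
Plxnb1: tcccgcgggaccGGAATGcggggtcccgga
Plxnd1: gcgagaggaagaCATTCCaggagctggcca
The matches begin at -22, -239, -48, -148 and -173 from the respective starts. The GC box GGGCGG was in 27 of the 37 windows (73.0% against 35.7% of all windows), the CCAAT letters were in 7 (18.9% against 37.4%) and the E box CACGTG in 3 (8.11% against 7.15%). In the 16 windows of members higher with CCl4 these 3 were found in 75.0%, 18.8% and 6.25%. A match in this window is a description of the sequence and was not tested for binding.

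The genes Sema4g, Plxnb2, Sema4a and Plxnb1 stood above the other members in level. Per kilobase of exon, averaged over the 8 group means, Sema4g stood at 28.3 CPM per kb, the receptor Plxnb2 at 24.5, Sema4a at 11.2 and Plxnb1 at 5.53. Sema4g is a membrane-bound class 4 semaphorin, Sema4a is a class 4 semaphorin best known for acting on T cells, and Plxnb1 and Plxnb2 are receptors of class 4 ligands. Nrp1 followed at 2.14 CPM per kb and Plxna2 at 1.82, and the remaining 20 tested members lay between 0.0303 (Sema3a) and 1.47 (Plxnd1). The control mice ran from 22.2 to 28.6 CPM per kb for Sema4g and from 17.4 to 30.6 for Plxnb2, so the order of these first 2 was within their spread, as was that of many neighbours further down. The 5 members under the minimum of 10 counts were Plxnb3 (mean 4.96 counts), Sema4f (2.67), Sema7a (2.19), Sema3g (1.81) and Sema3e (1.52). None of those 5 exceeded 12 counts in any library, and each had libraries without a count, from 1 for Plxnb3 to 11 for Sema3e.

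**Figure D1:**
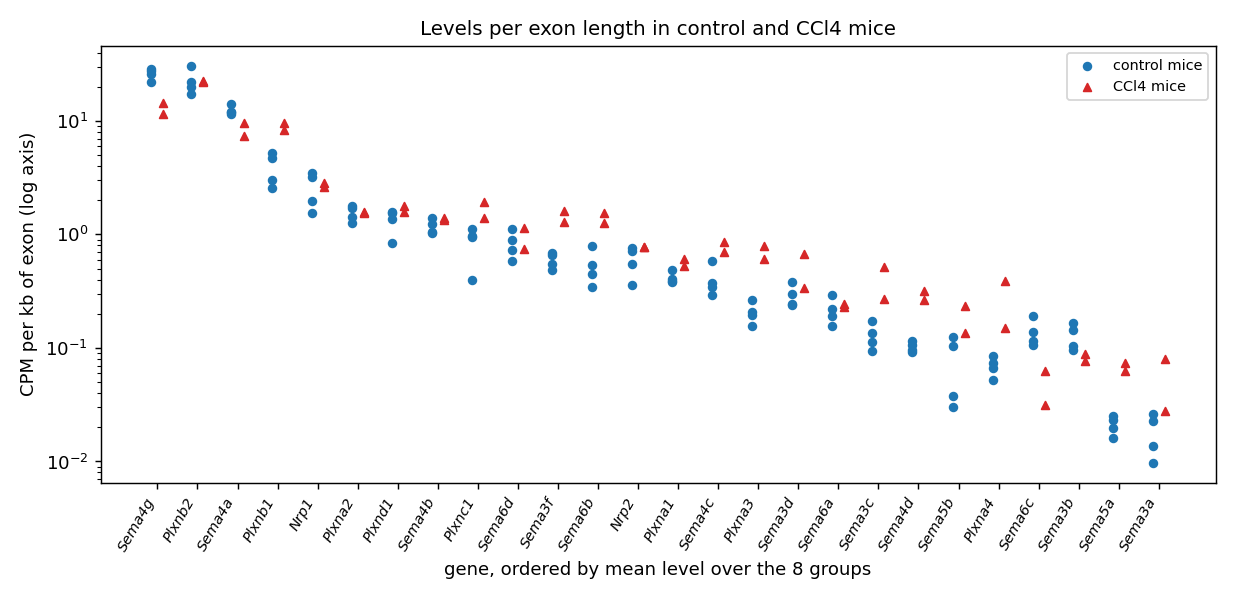
Level of each tested member per kilobase of exon (CPM per kb, log axis) in the 4 control mice (circles) and the 2 CCl4 mice (triangles), ordered by the mean over the 8 groups. Sema4g, Plxnb2, Sema4a and Plxnb1 lie above the rest, and the 2 CCl4 mice lie below the control mice for Sema4g and Sema4a and above them for Plxnb1.

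The first question was what CCl4 did to these genes, averaged with equal weight over the 4 arms (no treatment, 4MU, siLuc and siHAS2), each arm being a set of CCl4 mice and its own mice without CCl4. The members moved upwards: 14 of the 26 rose and 0 fell at an adjusted p under 0.05 (edgeR's quasi-likelihood test, Benjamini-Hochberg over 14114 genes; 17 had an unadjusted p under 0.05). Among all genes tested, 26.3% rose and 25.6% fell. The median log2 fold change was 0.42 for the members and -0.02 for all genes. By family, 8 of 16 semaphorins and 6 of 10 plexins and neuropilins rose. Sema3a, at a mean of 6.0 counts without and 14.9 with CCl4, reached the minimum only through the CCl4 mice, and without it 13 of 25 rose. The 14 genes were Plxna3, Plxnb1, Sema4d, Sema5b, Plxna4, Sema3f, Sema4c, Sema5a, Sema6b, Plxna1, Sema3a, Plxnd1, Plxnc1 and Sema4b. With a fold change of at least 1 on the log2 scale also required, 6 remained, Sema3a among them.

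**Figure D2:**
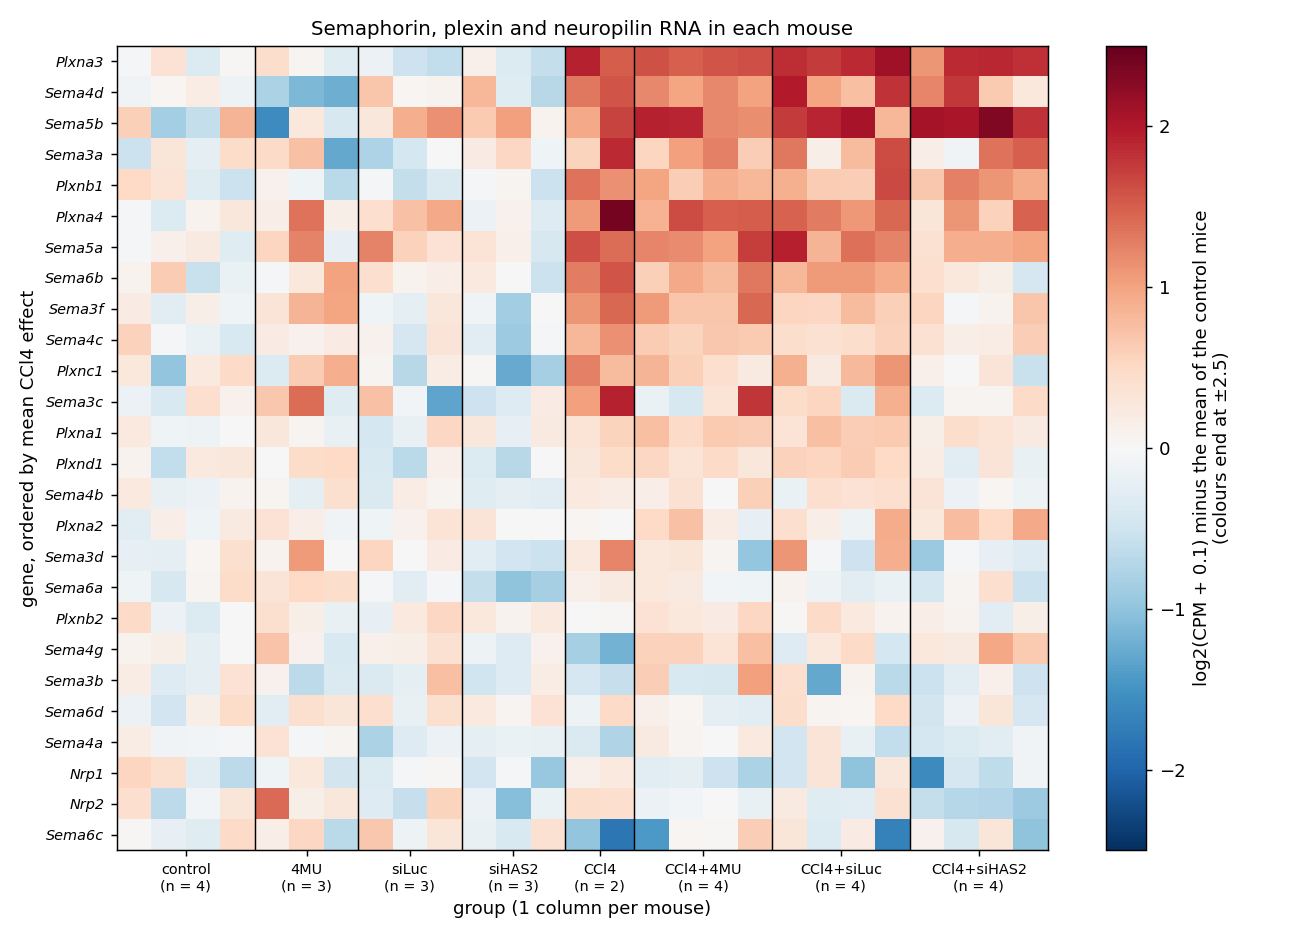
Each row is 1 of the 26 tested genes and each column 1 mouse. Colour gives log2(CPM + 0.1) minus the mean of the 4 control mice, red above and blue below. Plxna3, at the top, is red in all 14 CCl4 mice, whereas Sema4g is blue in the 2 CCl4 mice without treatment and not in the CCl4 mice given 4MU or siHAS2.

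Among the receptors, Plxna3, a class A plexin that serves class 3 semaphorins together with neuropilins (ENSMUSG00000031398, GRCm39 chrX:73372672-73388295, plus strand), changed most. Plxna3 measured 1.53, 2.07, 1.24 and 1.64 CPM in the control mice, 2.203, 1.68 and 1.27 in the 4MU mice, 1.43, 1.08 and 1.01 in the siLuc mice and 1.74, 1.23 and 1.02 in the siHAS2 mice. With CCl4, Plxna3 measured 6.28 and 4.75 CPM without treatment, 4.99, 4.64, 4.95 and 5.05 with 4MU, 5.96, 5.59, 6.06 and 7.28 with siLuc and 3.52, 6.06, 6.14 and 5.88 with siHAS2. All 14 CCl4 mice lay above all 13 others, the closest being 3.52 CPM with and 2.203 CPM without CCl4. The log2 fold change was 1.92 (SE 0.12, adjusted p 3.41e-12). Plxnb1, the receptor of Sema4d (ENSMUSG00000053646, GRCm39 chr9:108923419-108950427, plus strand), was the other such member. Plxnb1 measured 68.2, 61.4, 39.3 and 33.3 CPM in the control mice, 52.2, 45.0 and 30.3 in the 4MU mice, 46.9, 32.0 and 37.8 in the siLuc mice and 46.6, 50.5 and 33.5 in the siHAS2 mice. With CCl4, Plxnb1 measured 124 and 107 CPM without treatment, 95.4, 74.2, 91.5 and 86.0 with 4MU, 89.7, 75.0, 74.1 and 151 with siLuc and 76.99, 117, 104.5 and 91.6 with siHAS2. Again no CCl4 mouse overlapped with a mouse without CCl4, at a lowest 74.1 and a highest 68.2 CPM. It rose by 1.18 on the log2 scale (SE 0.13, adjusted p 6.95e-08). Of all genes tested, 3.21% had every CCl4 mouse above every other mouse, and 1.37% every CCl4 mouse below.

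Plxna4 and Plxna1, the other class A plexins that rose, did so with overlap between mice. Plxna4 averaged 1.01 ± 0.192 (SD) CPM in control, 1.65 ± 0.909 in 4MU, 1.70 ± 0.324 in siLuc and 0.917 ± 0.156 in siHAS2 mice. With CCl4 it averaged 3.90 ± 2.42 without treatment, 2.80 ± 0.620 with 4MU, 2.65 ± 0.321 with siLuc and 1.99 ± 0.758 with siHAS2. The difference was 1.09 on the log2 scale (SE 0.18, adjusted p 1.65e-05). Plxna1 averaged 6.49 ± 0.785, 6.77 ± 1.11, 6.56 ± 2.36 and 7.01 ± 1.22 CPM in the same 4 groups without CCl4. In their CCl4 counterparts it averaged 8.86 ± 0.898, 10.1 ± 0.803, 9.82 ± 1.14 and 7.97 ± 0.702. Its change was smaller, at 0.45 on the log2 scale (SE 0.10, adjusted p 0.000406). Plxnd1, the endothelial receptor of Sema3e, and Plxnc1, the receptor of Sema7a on leukocytes, rose by 0.40 and 0.63 on the log2 scale (adjusted p 0.00302 and 0.0039). Their ligands Sema3e and Sema7a are among the members too low to test. The abundant Plxnb2 (log2 fold change 0.01, 95% interval -0.19 to 0.21), Plxna2 (0.25), Nrp1 (-0.11) and Nrp2 (-0.18) were not called.

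Of the ligands, Sema4d, known from lymphocytes and other leukocytes and a ligand of Plxnb1, changed most (ENSMUSG00000021451, GRCm39 chr13:51836318-51947922, minus strand). Sema4d measured 1.22, 1.36, 1.495 and 1.19 CPM in the control mice, 0.717, 0.547 and 0.506 in the 4MU mice, 2.17, 1.37 and 1.41 in the siLuc mice and 2.42, 1.04 and 0.777 in the siHAS2 mice. With CCl4, Sema4d measured 3.41 and 4.07 CPM without treatment, 3.14, 2.69, 3.14 and 2.74 with 4MU, 5.45, 2.70, 2.28 and 4.82 with siLuc and 3.17, 4.69, 2.13 and 1.60 with siHAS2. The CCl4 mice lay at 1.60 to 5.45 CPM and the others at 0.506 to 2.42, and those ranges overlapped through CCl4+siHAS2 mice 3 and 4, CCl4+siLuc mouse 3 on one side and siHAS2 mouse 1 and siLuc mouse 1 on the other. The difference was 1.52 on the log2 scale (SE 0.19, adjusted p 3.58e-07). Sema5b, a membrane protein with thrombospondin repeats, ran from 0.97 to 2.89 CPM with CCl4 (median 2.07) and from 0.103 to 1.23 without (median 0.629). It averaged 0.583 ± 0.371, 0.361 ± 0.261, 0.962 ± 0.306 and 0.839 ± 0.297 CPM in control, 4MU, siLuc and siHAS2 mice, and 1.46 ± 0.548, 1.72 ± 0.520, 1.86 ± 0.627 and 2.44 ± 0.364 in the corresponding CCl4 groups. It rose by 1.49 on the log2 scale (SE 0.23, adjusted p 1.06e-05). Its relative Sema5a rose by 0.98 on the log2 scale (SE 0.19, adjusted p 0.000131). The Sema5a means were 0.430 ± 0.0810, 0.718 ± 0.392, 0.800 ± 0.304 and 0.445 ± 0.135 CPM without CCl4 and 1.40 ± 0.161, 1.20 ± 0.297, 1.29 ± 0.452 and 0.821 ± 0.158 with it. The low level of both class 5 genes, 2 to 72 counts per library for Sema5b and 5 to 49 for Sema5a, limits their precision.

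Averaged over the arms, the secreted class 3 ligands did not move as a group. Sema3f, which binds mainly Nrp2, averaged 3.37 ± 0.513 CPM in control, 5.69 ± 1.32 in 4MU, 3.32 ± 0.679 in siLuc and 2.76 ± 0.847 in siHAS2 mice. With CCl4 it averaged 8.23 ± 1.31, 6.79 ± 1.81, 5.16 ± 0.464 and 4.28 ± 1.08 CPM in the same order, and rose by 0.70 on the log2 scale (SE 0.13, adjusted p 5.73e-05). Sema3a, the classic axon repellent that binds Nrp1, rose by 1.23 on the log2 scale (SE 0.30, adjusted p 0.00127) from between 1 and 33 counts per library. As it reached the minimum of 10 counts only through the CCl4 mice, that rise is given as a value and lends no weight to the count. With no minimum the adjusted p over all genes was 0.000595. Sema3c (log2 fold change 0.58, adjusted p 0.0732), Sema3d (0.16, adjusted p 0.503) and Sema3b (-0.10, adjusted p 0.748) were not called. In the arm without treatment alone Sema3c was called higher (1.59, adjusted p 0.0259). That call was lost in the refits without control mouse 1 (adjusted p 0.0524) or 2 (0.0589), and the estimate was 1.07 without CCl4 mouse 2.

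Further membrane-bound ligands rose. Sema4c, a class 4 semaphorin that binds Plxnb2, averaged 2.57 ± 0.827, 2.82 ± 0.106, 2.54 ± 0.661 and 1.93 ± 0.600 CPM without CCl4. With CCl4 it averaged 5.07 ± 0.769, 3.91 ± 0.151, 3.47 ± 0.214 and 3.20 ± 0.502, a difference of 0.65 on the log2 scale (SE 0.12, adjusted p 6.97e-05). Sema6b, a class 6 semaphorin that binds class A plexins, rose by 0.71 on the log2 scale (SE 0.14, adjusted p 0.000136), with values given below. Sema4b rose by 0.26 (adjusted p 0.0271), and it was the 1 call of the 14 that refits without 1 library lost, namely those without 4MU mouse 2 (adjusted p 0.0586) and siLuc mouse 1 (0.0553), while Sema3a fell under the minimum in 2 such refits and was not tested there. Sema4b was also lost without the minimum count (0.0778). The remaining class 6 genes Sema6a (0.14, adjusted p 0.342), Sema6c (-0.57, adjusted p 0.0559) and Sema6d (-0.11, adjusted p 0.472) were not called, nor were Sema4a (-0.11, adjusted p 0.338) and Sema4g (-0.04, adjusted p 0.778) in this average, although both fell in the arm without treatment.

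Cell type markers moved in the same samples. All 6 tested myofibroblast markers rose with CCl4, and the summed level of the list was 19.9 to 107 CPM in the mice without CCl4 and 148 to 1009 CPM in those with it. All 4 proliferation markers rose (1.33 to 25.2 CPM without, 37.5 to 508 CPM with CCl4), as did 6 of 6 monocyte and macrophage markers (40.0 to 187 CPM and 106 to 486 CPM) and 4 of 4 tested cholangiocyte markers (3.30 to 11.9 CPM and 5.94 to 122 CPM). Of 6 sinusoidal endothelial markers 4 rose and 1 fell (60.3 to 156 CPM and 78.5 to 169 CPM), of 5 other endothelial markers 2 rose, and of 5 quiescent stellate markers 2 rose and 2 fell. Kupffer markers fell in 4 of 6 (154 to 472 CPM and 97.3 to 394 CPM), hepatocyte markers in 3 of 5, lymphocyte markers in 1 of 3 and nerve and Schwann markers in 1 of 3 tested. Over all marker lists the smallest adjusted p belonged to Timp1 (log2 fold change 4.1), Ccnb1 (5.62) and Mki67 (4.26), an inhibitor of matrix proteases and a pair of cell cycle genes. Among all genes 26.3% rose and 25.6% fell in this average. The counts within single arms varied. Monocyte and macrophage markers rose in 6 of 6 without treatment, 6 with 4MU, 1 with siLuc and 0 with siHAS2. Of 6 Kupffer markers 1 rose and 1 fell without treatment, and 2 rose and 1 fell with 4MU. With siLuc 3 of them fell and with siHAS2 4. Hepatocyte markers fell in 3 of 5 without treatment, 0 with 4MU, 1 with siLuc and 0 with siHAS2. In bulk liver, fewer or more cells of a type and less or more RNA per cell cannot be told apart. The part of these cell types in the member results was not tested.

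Each arm was then taken on its own, and the 4 arms share no library. In the arm without treatment (2 CCl4 against 4 control mice) 12 members rose and 3 fell, where 18% of all genes rose and 16.1% fell. In the 4MU arm 5 rose and 1 fell (13.2% and 10.5% of all genes), in the siLuc arm 7 rose and 0 fell (13% and 11.2%), and in the siHAS2 arm 4 rose and 0 fell (7.74% and 5.09%). Plxna3 and Plxnb1 were called higher in all 4 arms, as were 4.07% of all genes (1.63% were lower in all 4). The log2 fold change of Plxna3 was 1.77 without treatment, 1.51 with 4MU, 2.41 with siLuc and 2.00 with siHAS2, with SEs of 0.24 to 0.25. For Plxnb1 the 4 values were 1.20, 1.03, 1.33 and 1.16 (SE 0.26 to 0.28). Sema4d and Sema5b were each called in 3 arms, Sema4d in all but that of siHAS2 (1.04, adjusted p 0.0614) and Sema5b in all but that of siLuc (0.93, adjusted p 0.13). All 14 members that rose on average had a positive estimate in every arm. They were chosen by the average over these same arms, so this follows in part from the choice and is no independent agreement. Plxnd1 was the one called in the siLuc arm only (0.83, adjusted p 0.00533). Of the 32 calls within single arms, 19 were lost in at least 1 refit without 1 library, among them Sema6b in the siLuc arm in 7 of 7 refits, Nrp2 in the 4MU arm in 5 of 7 and Plxnc1 in the arm without treatment in 5 of 6. Sema3a is among the calls of the arm without treatment and of the siLuc arm. Without it 11 of 25 rose in the arm without treatment and 6 of 25 in the siLuc arm. The differences between arms were tested only through the interactions given further down.

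**Figure D3:**
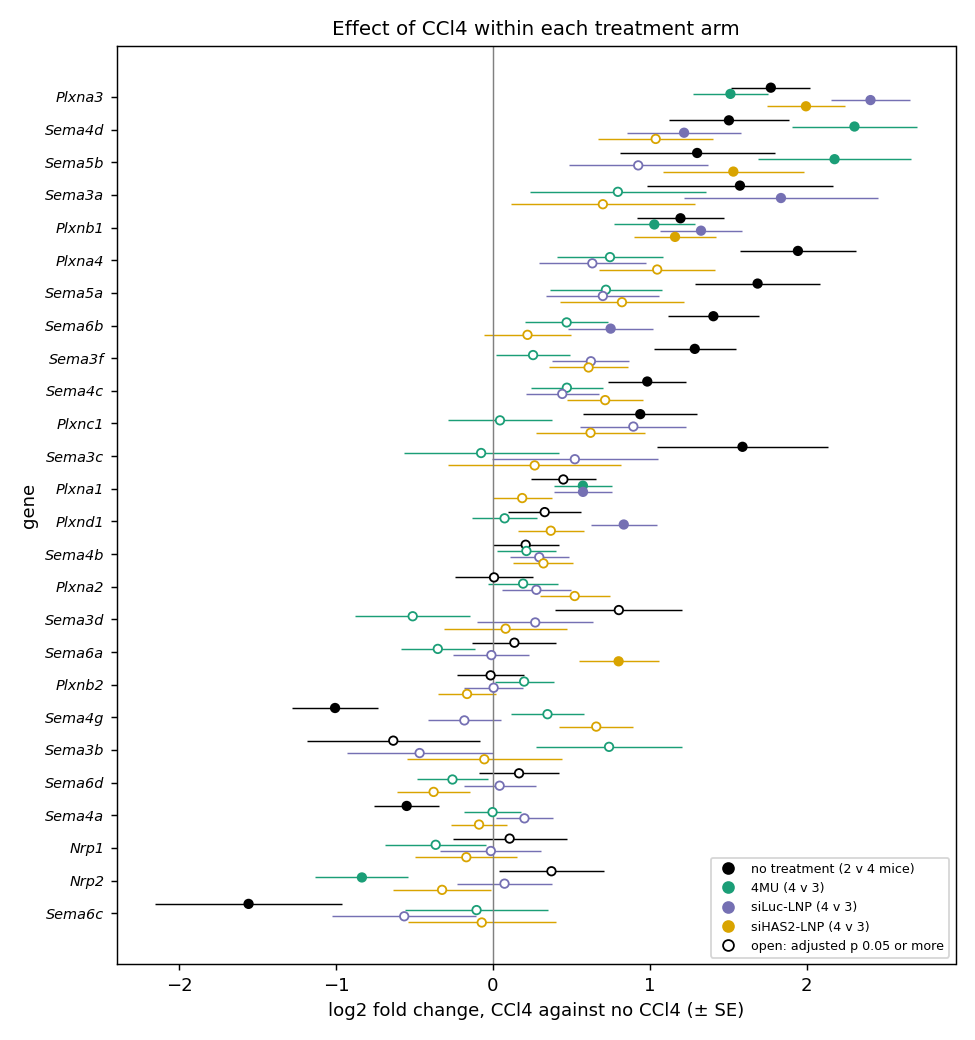
Log2 fold change of each tested member between CCl4 mice and mice without CCl4 within each of the 4 arms, with its SE. Filled points have an adjusted p under 0.05. Plxna3 and Plxnb1 are filled in all 4 arms, Sema4g, Sema4a and Sema6c lie below 0 and filled only in the arm without treatment, and Nrp2 only in the 4MU arm.

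The arm without treatment held the 3 members that fell. Sema4g (ENSMUSG00000025207, GRCm39 chr19:44977540-44991836, plus strand) and Plxnb2 are the most abundant members per kilobase, and their order lay within their spread in control mice. Sema4g measured 255, 267, 207 and 240.3 CPM in the control mice, 397, 262 and 185 in the 4MU mice, 263, 268 and 313 in the siLuc mice and 222, 192 and 261 in the siHAS2 mice. With CCl4, Sema4g measured 135 and 106 CPM without treatment, 358, 361, 307 and 406 with 4MU, 194, 288, 335 and 177 with siLuc and 288, 282, 473 and 378 with siHAS2. The 2 CCl4 mice were the lowest of all 27, with the next lowest at 177 CPM in CCl4+siLuc mouse 4. The log2 fold change was -1.01 (SE 0.28, adjusted p 0.00678). Without CCl4 mouse 2 the adjusted p was 0.128. Sema4a (ENSMUSG00000028064, GRCm39 chr3:88343262-88372558, minus strand) came with it. Sema4a measured 130.1, 106, 109 and 111 CPM in the control mice, 146, 110.2 and 119.9 in the 4MU mice, 65.7, 90.6 and 103 in the siLuc mice and 96.5, 101 and 99.7 in the siHAS2 mice. With CCl4, Sema4a measured 88.3 and 67.6 CPM without treatment, 133, 119, 114 and 135 with 4MU, 81.9, 141, 99.7 and 74.7 with siLuc and 83.3, 89.1, 94.1 and 107 with siHAS2. CCl4 mouse 2 was the lowest but 1 of the 27, siLuc mouse 1 being lower. Its change was -0.55 on the log2 scale (SE 0.21, adjusted p 0.0443). Sema6c fell by 1.56 on the log2 scale (SE 0.60, adjusted p 0.0458) at 0.681 and 0.339 CPM in the 2 CCl4 mice against 1.15 to 2.04 CPM in the control mice. The calls of Sema4a and Sema6c were lost in 5 of the 6 refits that left out 1 library.

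Several of these genes overlap exons of a gene on the other strand, and whether strand was used in counting is not stated in the sources used here, so their reads may not be separable. Sema4g shares 1181 exonic bases (12.7% of its own) with Mrpl43, which encodes a mitochondrial ribosomal protein and averaged 341 counts against 5942 for Sema4g. Mrpl43 changed by a log2 fold change of -0.25 (SE 0.25, adjusted p 0.453) between CCl4 and control mice. Sema4d shares 1766 bases (13.7%) with Secisbp2, at 299 counts on average against 53.1 for Sema4d. Secisbp2 fell with CCl4 (log2 fold change -0.40, SE 0.08, adjusted p 8.45e-05) where Sema4d rose. Sema5a shares 631 bases (3.09%) with the noncoding RNA gene Snhg18, at 55.6 counts against 19.7. Snhg18 rose with CCl4 by 1.56 (SE 0.16, adjusted p 2.09e-08), in the same direction as Sema5a, so the Sema5a values are uncertain. Plxnb1 shares 513 bases with Gm7628 (18.3 counts on average against 1606), and Sema4c 1091 bases (16.8%) with D430040D24Rik (6.04 counts against 69.3).

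The wider pathway was read from a list of 62 co-receptors, VEGF ligands and receptors, GTPases, kinases and cytoskeletal effectors, of which 56 were tested. With CCl4 averaged over the arms 28 rose and 7 fell, where 26.3% of all genes rose and 25.6% fell. The median log2 fold change was 0.19 for the list and -0.02 for all genes. The smallest adjusted p belonged to Trem2, a receptor of lipid-associated macrophages (4.02, SE 0.19, adjusted p 1.15e-14), Pak1, a kinase downstream of Rac (1.66, SE 0.15, adjusted p 2.23e-09), and Ptk7, a plexin-associated pseudokinase (1.61, SE 0.15, adjusted p 2.84e-09). The VEGF ligands that neuropilins bind did not move together, as Vegfa (-0.65) and Vegfb (-0.77) fell and Vegfc (0.30) rose. The VEGF receptors Kdr (0.59) and Flt4 (0.84) rose. These VEGF genes were chosen by name and not by rank, and Flt1, also on the list, is not given for this effect.

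The second question was what each treatment did in mice that received CCl4. The comparisons of CCl4+4MU, CCl4+siLuc and CCl4+siHAS2 share the same 2 CCl4 mice, so they are not independent of each other. With 4MU 2 members were higher and 0 lower (8.28% and 10% of all genes), namely Sema4g and Sema4a. With siHAS2 1 was higher and 3 lower (7.11% and 7.33% of all genes), namely Sema4g higher and Sema6b, Sema3f and Nrp2 lower. With siLuc 0 were called (0.248% of all genes in either direction), though 5 had an unadjusted p under 0.05, DESeq2 called 1 and limma-voom 0. CCl4+siHAS2 against CCl4+siLuc, the comparison that holds the particle constant, also gave 0 (1.09% of all genes), with 6 at an unadjusted p under 0.05, 1 call by DESeq2 and 0 by limma-voom.

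Every mouse of the 3 treated CCl4 groups had more Sema4g than both CCl4 mice. Its values, given above, were 307 to 406 CPM with 4MU and 282 to 473 CPM with siHAS2, against 135 and 106 CPM in the CCl4 mice, and those groups did not overlap. The share of all genes with such a separation was not counted, so it lends no weight to the calls. The log2 fold change was 1.57 (SE 0.28, adjusted p 0.00113) for 4MU and 1.56 on the log2 scale (SE 0.28, adjusted p 0.00164) for siHAS2. With siLuc it was 1.04 (95% interval 0.47 to 1.61, SE 0.28, adjusted p 0.0891), and the values of 177 to 335 CPM also lay above both CCl4 mice. Between CCl4+siHAS2 and CCl4+siLuc the difference was 0.52 (95% interval 0.07 to 0.96, adjusted p 0.221). Mrpl43, which shares exonic bases with it, differed by -0.08 (4MU) and -0.01 (siHAS2) from the CCl4 mice. Sema4a was higher with 4MU at 0.68 on the log2 scale (SE 0.21, adjusted p 0.0265), with 114 to 135 CPM in the CCl4+4MU mice against 88.3 and 67.6 CPM.

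Sema6b, Sema3f and Nrp2 were lower with siHAS2 than in the CCl4 mice. For each of these genes every CCl4+siLuc mouse also lay below both CCl4 mice. None of them was called for CCl4+siLuc against CCl4 or for CCl4+siHAS2 against CCl4+siLuc, so a part of the siRNA's target in them is not shown. Sema6b (ENSMUSG00000001227, GRCm39 chr17:56430078-56449459, minus strand) is described first. Sema6b measured 3.61, 5.37, 2.31 and 3.03 CPM in the control mice, 3.28, 4.14 and 6.99 in the 4MU mice, 4.58, 3.65 and 3.87 in the siLuc mice and 4.04, 3.44 and 2.33 in the siHAS2 mice. With CCl4, Sema6b measured 8.42 and 10.4 CPM without treatment, 5.25, 6.68, 5.95 and 8.68 with 4MU, 6.11, 7.21, 7.204 and 6.62 with siLuc and 4.62, 4.102, 3.77 and 2.54 with siHAS2. The CCl4+siHAS2 mice lay below both CCl4 mice and below all CCl4+4MU and CCl4+siLuc mice, and the CCl4+siHAS2 against CCl4 difference was -1.29 on the log2 scale (SE 0.29, adjusted p 0.00543). Against CCl4+siLuc it was -0.82 (SE 0.25, adjusted p 0.0979). Nrp2, the neuropilin of lymphatic and venous endothelium and of Sema3f (ENSMUSG00000025969, GRCm39 chr1:62742444-62857854, plus strand), followed. Nrp2 measured 9.21, 4.31, 6.58 and 8.55 CPM in the control mice, 18.6, 7.62 and 8.41 in the 4MU mice, 5.49, 4.56 and 10.1 in the siLuc mice and 6.18, 3.25 and 6.10 in the siHAS2 mice. With CCl4, Nrp2 measured 9.34 and 9.27 CPM without treatment, 6.24, 6.58, 6.95 and 6.01 with 4MU, 8.03, 5.59, 5.70 and 9.05 with siLuc and 4.54, 4.15, 4.09 and 3.61 with siHAS2. The 2 CCl4 mice were nearly alike, the 4 CCl4+siHAS2 mice all lay below them and below the other treated CCl4 mice, and siHAS2 mouse 2 was lower still. The difference was -1.17 on the log2 scale (SE 0.34, adjusted p 0.0228). Sema3f (ENSMUSG00000034684, GRCm39 chr9:107558698-107587674, minus strand) had 7.30 and 9.16 CPM in the CCl4 mice and 4.89, 3.22, 3.53 and 5.48 in the CCl4+siHAS2 mice, without overlap, a difference of -0.97 on the log2 scale (SE 0.26, adjusted p 0.0168). In the other treated mice it read 7.06, 5.44, 5.43 and 9.25 with 4MU and 4.86, 4.82, 5.82 and 5.13 with siLuc. How many of all genes separate the 4 CCl4+siHAS2 mice from the 2 CCl4 mice was not counted, so non-overlap lends no weight to these calls.

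All of these treatment calls rested on CCl4 mouse 2. When that library was left out, 0 members were called for 4MU and 0 for siHAS2, with 1 CCl4 mouse left whose spread was taken from the other groups. Sema4g then had a log2 fold change of 1.38 for 4MU (adjusted p 0.0611) and 1.36 for siHAS2 (adjusted p 0.0703), Sema4a 0.47 for 4MU (adjusted p 0.334), and Sema6b, Sema3f and Nrp2 -1.16, -0.82 and -1.21 for siHAS2 (adjusted p 0.112, 0.226 and 0.153). Without CCl4 mouse 1 the 4MU count was 2 and the siHAS2 count 6, and Nrp2 was not among the calls (adjusted p 0.066). Sema4a was also lost without CCl4+4MU mouse 1 (adjusted p 0.0521) or 4 (0.0584), and Sema3f without CCl4+siHAS2 mouse 3 (0.0508). Marker levels moved in the same comparisons. Against CCl4 mice, hepatocyte markers rose in 3 of 5 with 4MU and 0 of 5 with siHAS2. Myofibroblast markers fell in 2 of 6 with 4MU and 4 of 6 with siHAS2, proliferation markers in 4 of 4 and 2 of 4, Kupffer markers in 0 of 6 and 4 of 6, and endothelial markers other than sinusoidal in 0 of 5 and 2 of 5. Over the marker lists the smallest adjusted p with 4MU belonged to Top2a (-2.74), Cdk1 (-2.05) and Timp1 (-1.52), and with siHAS2 to the Kupffer genes Marco (-7.33), Clec4f (-1.72) and Vsig4 (-2.03). With siLuc 1 of 6 Kupffer markers was called lower than in CCl4 mice, the lowest log2 fold change of that list being -6.63. Between CCl4+siHAS2 and CCl4+siLuc 0 of 6 Kupffer markers were called, with 4 at an unadjusted p under 0.05. These Kupffer falls are therefore not shown to depend on the siRNA's target. The part of these cell types in the Sema4g, Sema4a, Sema6b, Sema3f and Nrp2 differences was not tested.

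**Figure D4:**
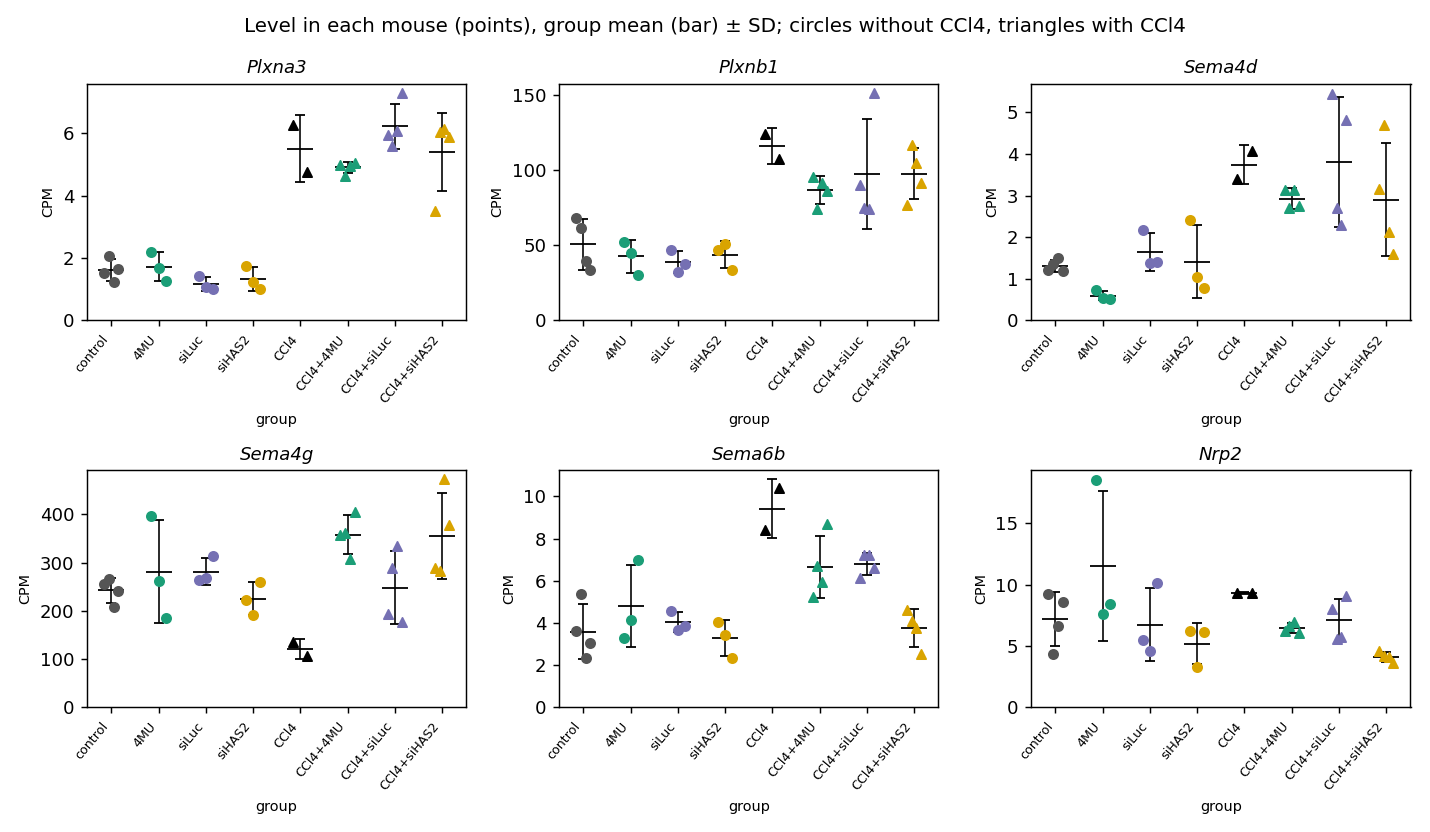
Level of 6 members in each mouse (CPM, points), with the group mean and SD, circles for groups without and triangles for groups with CCl4. All CCl4 mice lie above the rest for Plxna3 and Plxnb1, and the 2 CCl4 mice are the lowest for Sema4g. For Sema6b and Nrp2 the CCl4+siHAS2 mice and the CCl4+siLuc mice lie below the 2 CCl4 mice.

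**Figure D5:**
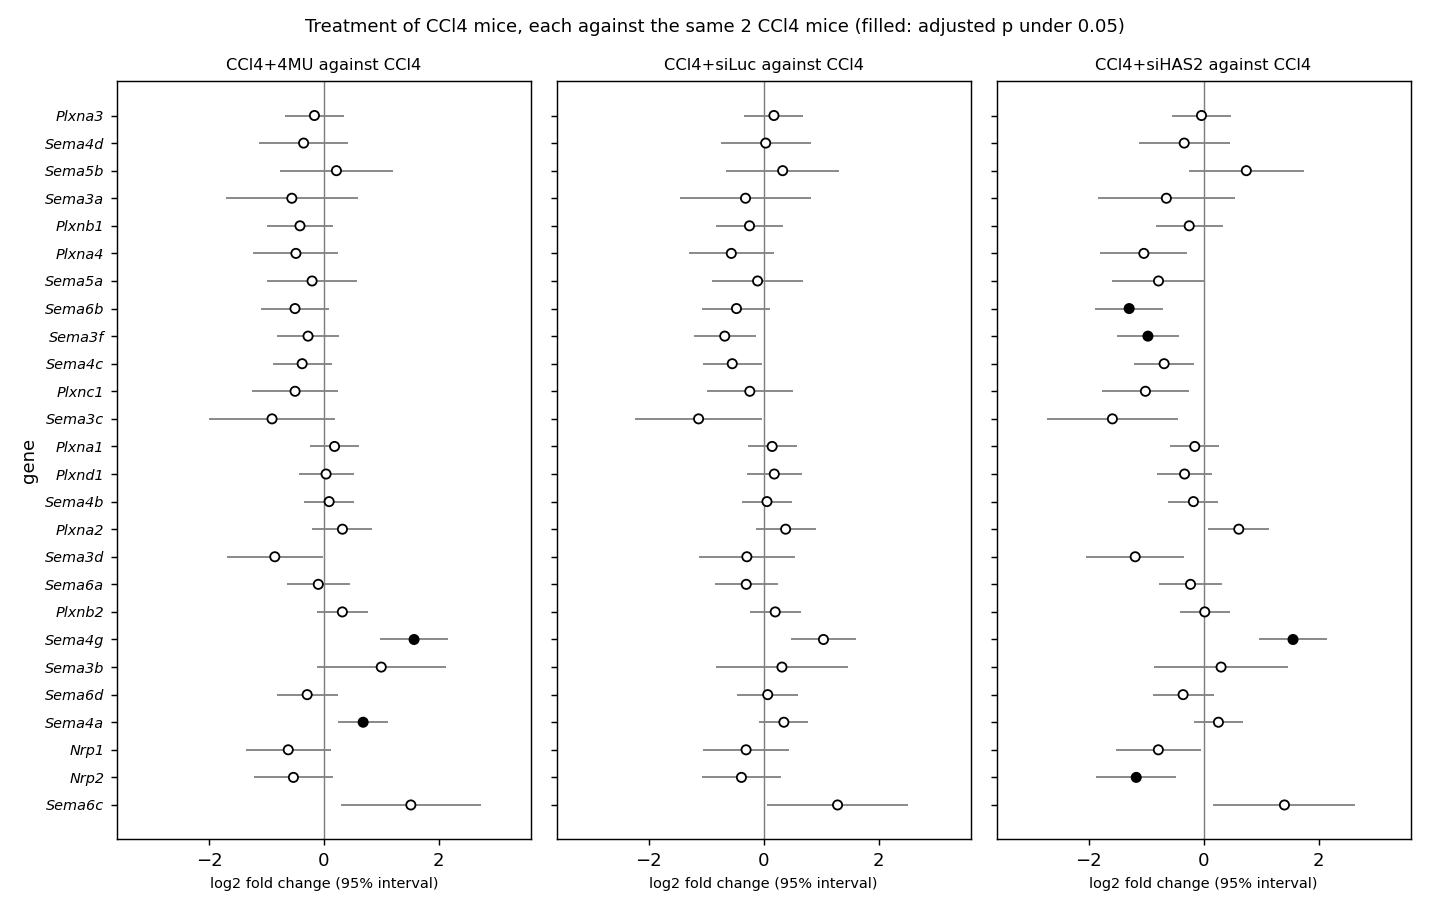
Log2 fold change of each tested member in CCl4 mice given 4MU, siLuc or siHAS2 against the same 2 CCl4 mice, with its 95% interval; filled points have an adjusted p under 0.05. Sema4g lies to the right in all 3 panels and is filled for 4MU and siHAS2, and Sema6b, Sema3f and Nrp2 are filled to the left for siHAS2.

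Of the pathway list, 3 of 56 rose and 3 fell with 4MU, where 8.28% of all genes rose and 10% fell. The smallest adjusted p belonged to Vegfa (0.92, SE 0.20, adjusted p 0.00348), Fes, a kinase that binds plexins (1.10, SE 0.25, adjusted p 0.00526), and Adamts1, a protease known to cleave semaphorins (-1.03, SE 0.28, adjusted p 0.0131). With siHAS2 1 rose and 5 fell (7.11% and 7.33% of all genes), led by Vegfa (1.03, SE 0.20, adjusted p 0.00251), Dpysl3, a collapsin response mediator (-1.47, SE 0.38, adjusted p 0.0134), and Flt1, a VEGF receptor (-0.94, SE 0.29, adjusted p 0.0332). The others that fell were Pak1, Itgb1 and Kdr. With siLuc 0 of 56 were called (1 at an unadjusted p under 0.05).

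Whether a treatment changed the effect of CCl4 was tested by interaction terms. For 4MU 1 member was called higher and 0 lower (2.72% and 2.95% of all genes). This was Sema4g, whose CCl4 effect differed by 1.35 on the log2 scale (SE 0.36, adjusted p 0.0331) between the 4MU arm (0.35) and the arm without treatment (-1.01). The call was lost in 7 of 13 refits without 1 library. The adjusted p was 0.201 without CCl4 mouse 2, 0.0554 and 0.0546 without control mouse 1 or 2, 0.0717 and 0.0755 without 4MU mouse 2 or 3, and 0.0558 and 0.063 without CCl4+4MU mouse 1 or 4. For siLuc against no treatment 0 were called (0.00709% of all genes) and 3 had an unadjusted p under 0.05, and for siHAS2 against siLuc 0 were called (0.0354%) and 2 had an unadjusted p under 0.05; neither DESeq2 nor limma-voom called any in these 2 tests. The siHAS2 interaction of Sema4g was 0.84 (95% interval 0.16 to 1.52, adjusted p 0.321).

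In mice without CCl4 no member was called in any comparison by edgeR, DESeq2 or limma-voom. 4MU against control gave 0 (0.00709% of all genes), with 3 members at an unadjusted p under 0.05, namely Sema3f (0.76, adjusted p 0.39), Sema4d (-1.15, adjusted p 0.483) and Nrp2 (0.68, adjusted p 0.664). The mice given 4MU had 0.717, 0.547 and 0.506 CPM of Sema4d, each below the lowest of the 4 control mice. How many of all genes separate these groups was not counted, so this lends no weight to a change of Sema4d. siLuc against control gave 0 (0.213%) with 3 at an unadjusted p under 0.05, and siHAS2 against siLuc 0 (0.0425%) with 2. The latter were Sema6a (-0.73, SE 0.27, adjusted p 0.379) and Plxna4 (-0.89, SE 0.39, adjusted p 0.49). Sema6a also has the only call in the siHAS2 arm not shared with the average over arms (0.80, adjusted p 0.0388), in a comparison that uses the same siHAS2 mice. That call was lost in 5 of 7 refits without 1 library (without siHAS2 mouse 1, 2 or 3 or CCl4+siHAS2 mouse 2 or 3, adjusted p 0.0571 to 0.172), with limma-voom (0.0631), without the minimum count (0.24) and with only the compared groups (0.114).

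Summed over each family, the level per kilobase of the 20 semaphorins was lowest in the CCl4 mice. It averaged 43.2 ± 3.40 (SD) CPM per kb in control, 49.5 ± 12.4 in 4MU, 44.6 ± 5.003 in siLuc and 39.1 ± 3.87 in siHAS2 mice, and 29.4 ± 2.46 in CCl4, 58.7 ± 6.09 in CCl4+4MU, 44.1 ± 10.2 in CCl4+siLuc and 53.5 ± 10.3 in CCl4+siHAS2 mice. Most of that sum is Sema4g and Sema4a. The plexin sum ran from a mean of 30.8 ± 6.60 CPM per kb in control mice to 40.9 ± 2.56 in CCl4+4MU mice, with 37.7 ± 1.00 in CCl4 mice. The neuropilin sum lay between 1.94 ± 0.587 in CCl4+siHAS2 and 3.51 ± 0.156 in CCl4 mice, with 3.13 ± 0.930 in control mice.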

How the data were processed

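The authors isolated polyadenylated RNA from total liver, made NEBNext Ultra II Directional libraries and sequenced them in paired-end mode. They deposited raw counts per Ensembl gene, made with Trimmomatic 0.39, HISAT2, GRCm39 and featureCounts, without multimapping reads; the HISAT2 version and the strand setting are not given in the sources used here. Of 55414 gene IDs, 54749 matched GENCODE vM39 (665 did not). The 14114 genes whose counts averaged 10 or more were fitted over all 27 libraries with edgeR 4.0.16 (R 4.3.3; TMM, glmQLFit, glmQLFTest, 8 groups). P-values were adjusted over all of them (Benjamini-Hochberg, threshold 0.05). Alternatives were DESeq2, limma-voom 3.58.1, DESeq2's size factors in edgeR, no filter, the compared groups alone, the replicate block, a minimum fold and leaving out each library. DESeq2, also the tool of the study's methods, which name no version, was run here at version 1.42.0. Scripts were tested on simulated data. CPM are counts per 1000000 of the TMM-scaled library. Values in every group are given for the 10 members with the smallest adjusted p in the averaged CCl4 effect and for any called between treatments or in an interaction. For the pathway and marker lists the 3 smallest are named, with some further genes of the pathway list. The symbol pattern uses no measured value, but these families and the lists were chosen as a subject with earlier results of these data known. Within groups, libraries differed by more than sampling noise (chi-square per degree of freedom 15.9 to 458 over 34 pairs), so none was taken as a duplicate. Intervals cover the spread between libraries; totals are in the report.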

Additional observations from a re-analysis of the deposited data

Results flagged for a closer look

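The CCl4 effect on Sema4g differed between the 4MU arm and the arm without treatment, by 1.35 on the log2 scale in the interaction term (adjusted p 0.0331), a call that was lost in 7 of 13 refits without 1 library and with the replicate block (adjusted p 0.054). Of 104 sets of 4 mice examined, 26 genes in the 4 groups of 4, 3 held a mouse far from the other 3 by Dixon's ratio, where chance flags about 5%. CCl4+siHAS2 mouse 1 was the lowest for Plxna3 at 3.52 CPM (ratio 0.898) and for Sema5a at 0.587 CPM (ratio 0.839), and CCl4+siLuc mouse 1 was the lowest for Sema4b at 6.93 CPM (ratio 0.88).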

How the results depend on the processing

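The count of members called under CCl4 averaged over the 4 arms was 14 and became 6 with a minimum log2 change of 1 in either direction. Sema3a is among both the 14 and the 6. It ran from 13 to 16 when 1 library was left out. CCl4 against control gave 5 to 13 calls instead of 15 without 1 library, the lowest without CCl4 replicate 2, where Plxna4, Sema4c, Sema4d and Sema4g were among those lost. The siLuc arm (7) gave 4 with only the compared groups, 4 with the minimum fold and 3 to 6 without 1 library. The siHAS2 arm (4) gave 8 with DESeq2 and 2 to 6 without 1 library. CCl4+4MU against CCl4 (2) gave 1 with the minimum fold and 0 to 2 without 1 library. CCl4+siHAS2 against CCl4 (4) gave 9 with DESeq2, 7 with limma-voom, 8 without the filter, 7 with the replicate block and 0 to 6 without 1 library. CCl4+siLuc against CCl4 (0) gave 1 with DESeq2, 1 without the filter and 0 to 1 without 1 library. CCl4+siHAS2 against CCl4+siLuc (0) gave 1 with DESeq2 and 3 without the filter. The 4MU interaction (1) gave 2 with DESeq2, 2 without the filter and 0 to 2 without 1 library. The cause of these changes was not tested. Of 989 values of single members under the alternatives, 861 kept direction and side of the threshold, 128 kept direction only, and 0 reversed. Without 1 CCl4 mouse the other is assumed to vary like the other groups.

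Whether the replicate numbers pair the samples is not stated in the labels, and the correlations given next cannot exclude it. Over 83 same-numbered pairs of libraries from different groups the correlation of deviations ran from -0.32 to 0.293 (median -0.0167, 17 pairs over 0.1). Over 234 other-numbered pairs it ran from -0.455 to 0.455 (median -0.0124, 60 pairs over 0.1). With the replicate block 8 calls of single members were lost: Sema4g in the 4MU interaction (adjusted p 0.054), Sema4b in the average over arms (0.053), Sema4a (0.0681), Sema5b (0.116) and Sema6c (0.0718) in CCl4 against control, Sema3a (0.0645) and Sema6b (0.0664) in the siLuc arm and Sema6a (0.0643) in the siHAS2 arm. In CCl4+siHAS2 against CCl4 it gave the 7 calls above, the only count that the block moved by over 1.5 times.

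Depth limits Sema3a, which fell below the minimum in 2 of the refits without 1 library, and the 5 members under 10 counts.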
